A study of Bos taurus with 21 samples.

Results

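Milk somatic cells of 14 Holstein cows of parity 2 were compared with those of 7 cows of a later parity, 4 of parity 3 and 3 of parity 4. Parity is the number of times a cow has calved, and the cows were taken by the parity given for each of them, so that all 21 cows of the series entered the comparison. No gene passed the test between parity 2 and the later parities after adjustment for the 9548 genes tested. Among the genes with the lowest p-values were FCGR3A (log2 fold change 1.56, SE 0.36), VNN2 and RGS2, with higher means at later parity, and ACAD8 (-0.91, SE 0.23) and CKB, with lower means. The fold changes of the immunoglobulin genes IGJ and IGLL1 came from 1 cow.

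The cells found in milk are mainly leukocytes (neutrophils, macrophages and lymphocytes) together with some secretory epithelial cells shed from the udder. Neutrophils enter the gland in large numbers when bacteria are present, macrophages and lymphocytes are resident or slower to arrive, and epithelial cells carry the mRNA of caseins and whey proteins. With each calving the gland goes through another cycle of growth, secretion and involution. RNA from all of these cells was sequenced together, so that fewer cells of a type and less RNA per cell cannot be told apart here.

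All cows were Holsteins kept in Korea, with 1 library of milk cells each, and the cow was the replicate. By the labels, 9 cows belonged to the high yielding group (HY) and 12 to the low yielding group (LY), which the authors had set on a national production index. Among the cows of parity 2, 6 were HY and 8 LY. Of the cows of parity 3, 2814 and 3014 were HY and 7598 and 7628 were LY. Of the cows of parity 4, 2920 was HY and 2864 and 2893 were LY. The lactation period ranged from 52 to 265 days at parity 2, with a median of 171.5, and from 41 to 270 days at later parity, with a median of 239. The mean difference of 23.7 days was within the spread between cows (two-sided exact permutation test, p = 0.536, adjusted p = 0.913 over 11 measures). Age, udder health and cell counts of the milk were not analysed here.

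Each library held between 7878557 and 28541904 counts on genes. Neither these totals nor the number of genes with a count, the share of reads on genes or the breeding values passed the same test between the parity groups, the adjusted p being 0.913 for every one of the 11 measures. The cows fell into 9 with more than 15000000 counts, 3 of them of later parity, and 12 with fewer, 4 of them of later parity. Markers of the expected cells were present in every library, the lowest summed level being 1815 CPM for the neutrophil list, 1390 for macrophages, 97.7 for T cells and 41 for mammary epithelium, while 12 erythroid genes summed to at most 3.66 CPM. CPM are counts per fixed number of counts in the library, its size being adjusted by TMM normalization, so that they need not sum to the same total in every library.

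In the quasi-likelihood test of edgeR, 0 of 9548 genes passed an adjusted p of 0.05, the lowest adjusted p being 0.999985. An unadjusted p under 0.05 was found for 398 genes, or 4.17% of those tested. Of these, 254 had a higher mean at later parity (2.66% of the genes tested) and 144 a lower one (1.51%). This split depended on single cows and on how parity was coded: it was 256 higher and 302 lower without cow 2893, 133 and 151 without cow 7598, and 163 and 257 with parity as a number. DESeq2 also called 0 genes after adjustment, with 527 at an unadjusted p under 0.05, and limma-voom called 0, with 290. The exact permutation test of log2(CPM + 0.25) called 0 as well. It had 326 genes (3.41%) at an unadjusted p under 0.05, with a nearly even split of 169 higher and 157 lower. The levels of the 2 groups of cows overlapped for every gene. In 76 genes (0.796%) all 7 cows of later parity lay above the median of parity 2, and in 106 genes (1.11%) all 7 lay below it.

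**Figure D1:**
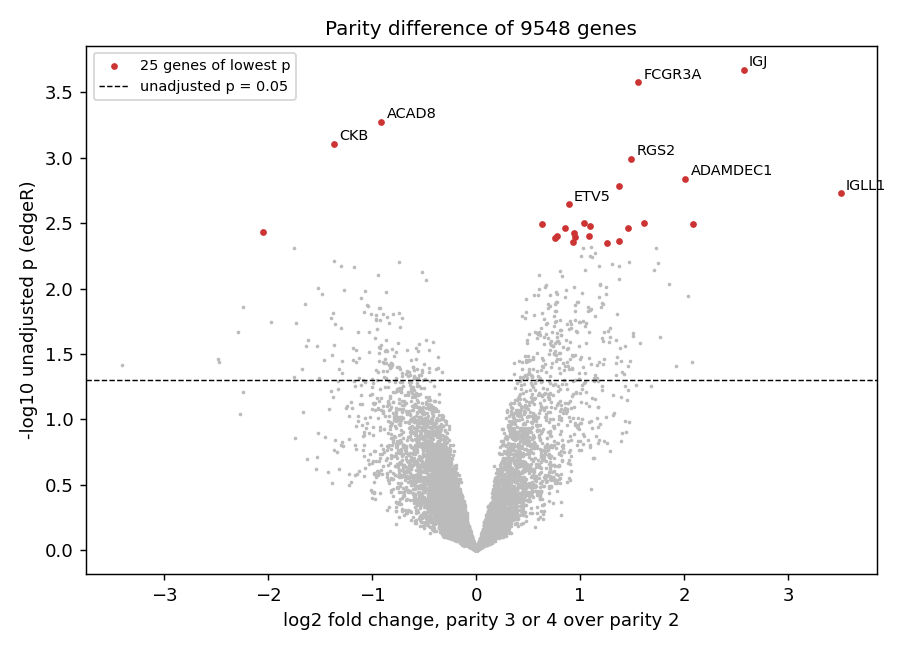
Log2 fold change of parity 3 or 4 over parity 2 (x axis) against the negative log10 of the unadjusted p of edgeR (y axis), each point being 1 of 9548 genes and the 25 genes of lowest p being in red. Of the red genes, 22 lie to the right of 0 and 3 to the left, and no gene passed the adjusted threshold.

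The 25 genes with the lowest p-values are described below as values, since they were chosen by this same contrast and none of them passed the adjusted test. Their adjusted p was 0.999985 in edgeR throughout. Of these, 22 had a higher mean at later parity. Cow 3014 held the highest of the 7 later values in 12 of the 22 and cow 7598 in 5. Cow 3014 lay above all 14 cows of parity 2 in 20 of them, cow 7598 in 19 and cow 2920 in 11, while cow 2864 did so in 1 and cow 7628 in 2.

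Several of these genes are known from leukocyte surfaces. FCGR3A encodes the IgG receptor CD16. Its level was 37.9 to 249 CPM at parity 2, with a median of 101. At later parity it was 841 in cow 3014, 432 in 7598, 318 in 2920, 277 in 2893, 176 in 2814, 161 in 7628 and 71.7 in 2864. Thus 4 of 7 cows exceeded all cows of parity 2 and 1 lay below their median. The log2 fold change was 1.56 (SE 0.36, unadjusted p = 0.000264 in edgeR). Over the fits without 1 cow it was between 1.11 and 1.78, the lowest being without cow 3014.

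VNN2, a GPI-anchored pantetheinase of leukocytes, also had its highest levels in cows 3014, 7598 and 2920. It was 3295 CPM in cow 3014, 2117 in 7598 and 1856 in 2920, between 489 and 669 in the remaining 4 later cows, and 111 to 1471 at parity 2 (log2 fold change 1.37, SE 0.44). CXCR2, the receptor through which neutrophils follow CXC chemokines, was not among the 25 genes and is named from the neutrophil list. It reached 3227 CPM in cow 3014, 2483 in 7598 and 1875 in 2920, against 127 to 1618 at parity 2 (log2 fold change 1.14, SE 0.44). In FCGR3A, VNN2 and CXCR2 the cows 3014, 7598 and 2920 stood at the top.

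RGS2, a regulator of G-protein signalling, lay above the median of parity 2 (123 CPM) in all 7 later cows. It was 812 CPM in cow 7598, 617 in 3014, 510 in 2920, 398.7 in 2893, 181 in 7628 and 134 in both 2864 and 2814. The range at parity 2 was 31.8 to 389 CPM and the log2 fold change 1.49 (SE 0.40, unadjusted p = 0.00101). ADAMDEC1, a secreted metalloproteinase-like protein made by macrophages and dendritic cells, was 0.947 to 21.4 CPM at parity 2. It was 69 CPM in cow 3014, between 25.7 and 32.2 in 7598, 7628, 2864 and 2920, 12.3 in 2893 and 1.37 in 2814 (log2 fold change 2.01, SE 0.56, unadjusted p = 0.00145). Here 5 of 7 later cows were above all cows of parity 2, and cow 2814 was near its lower end.

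ACAD8 and CKB were the genes of lowest p with a lower level at later parity. ACAD8, the mitochondrial isobutyryl-CoA dehydrogenase of valine breakdown, was 14.5 to 37.8 CPM at parity 2 with a median of 24.4. The later cows gave 18 in 7598, 16.9 in 7628, 14.4 in 2864, 13 in 2814, 12.1 in 3014, 10.8 in 2893 and 7.8 in 2920. All 7 were below the median of parity 2 and 5 were below its lowest cow. The log2 fold change was -0.91 (SE 0.23, unadjusted p = 0.000529), with -1.01 to -0.78 over the fits without 1 cow.

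CKB, the brain-type creatine kinase, was 23.1 to 83.8 CPM at parity 2 with a median of 40.5. Its later levels were 42.7 in cow 2814, 19.9 in 7628, 19.6 in 3014, 17.2 in 7598, 13.7 in 2864, 9.77 in 2920 and 6.18 in 2893. Apart from cow 2814, every later cow was below all cows of parity 2, and the 3 cows of parity 4 had the lowest levels of the series. The log2 fold change was -1.37 (SE 0.36, unadjusted p = 0.000785). With parity as a number, which gave 420 genes (4.4%) at an unadjusted p under 0.05, CKB had the lowest p of all genes, unadjusted 3.96e-05 and adjusted 0.378 in edgeR. ISG12(B), an interferon-induced gene of the IFI27 family, was 0.845 to 11.6 CPM at later parity and 1.38 to 74 at parity 2, all 7 later cows being below the parity 2 median of 14.8 (log2 fold change -2.05, SE 0.64). Since ISG12(B) and IFI27 are close relatives, reads may have been split between them.

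IGJ, the joining chain of IgA and IgM (now JCHAIN), had the lowest p of all genes, and its difference came from 1 animal. Cow 2814, which was of parity 3 and at day 41 of lactation, had 181 CPM. The other 6 later cows had 3.85 to 9.06 CPM, within the 2.16 to 9.37 CPM of parity 2. The log2 fold change was 2.57 (SE 0.59, unadjusted p = 0.000213) with all cows and 0.30 without cow 2814 (unadjusted p = 0.356). IGLL1, an immunoglobulin lambda-like gene whose reads may be shared with lambda light chain genes, was 740 CPM in the same cow. It was 0.211 to 12.3 CPM in the other later cows and 1.14 to 43 at parity 2. The log2 fold change of 3.50 (SE 1.001) became -0.59 without cow 2814.

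The same cow decided POU2AF1 and LAG3. POU2AF1, a coactivator of B cells and plasma cells, was 55.6 CPM in cow 2814 and 0 to 3.3 CPM in the other later cows, against 0 to 6.34 CPM at parity 2. LAG3, an inhibitory receptor of T cells, was 113 CPM in cow 2814, 21 in 2920 and 2.1 to 8.93 in the others, against 2.95 to 36.7 at parity 2. The log2 fold changes of 2.08 and 1.35 became -0.22 and -0.05 without this cow. Milk protein genes held 0.201% of the counts of cow 2814, the lowest share of the later cows. Its part in these differences other than by leaving it out was not tested.

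The other genes reported among the 25 are given mainly by their log2 fold changes. ETV5, an ETS family transcription factor, lay above the parity 2 median of 7.11 CPM in all 7 later cows, from 7.45 to 25.4 CPM (log2 fold change 0.89, SE 0.26). FGL2, a fibrinogen-like prothrombinase, had a log2 fold change of 1.04 (SE 0.32), SAG, the arrestin of photoreceptors, 1.62 (SE 0.49) and CDS2, an enzyme of phosphatidylinositol synthesis, 1.09 (SE 0.33). Genes of the interferon gamma pathway and antigen processing were IFNGR1, a chain of its receptor, with 0.94 (SE 0.29), GBP5, a guanylate-binding protein, with 1.09 (SE 0.34) and TAP2, a peptide transporter, with 0.95 (SE 0.30). The mitochondrial proteins SMCR7L (now MIEF1), which acts in fission, and TFB1M, which methylates ribosomal RNA, had 0.64 (SE 0.19) and 0.78 (SE 0.24). DDIT3, a transcription factor of the stress response, had 0.93 (SE 0.29), ZNF143 0.76 (SE 0.24), AIF1L 1.45 (SE 0.45), LOC786410 2.09 (SE 0.64) and LOC788736 0.86 (SE 0.26). IFIT3, an interferon-induced gene, had 1.26 (SE 0.40), with 1020 CPM in cow 7598 and 727 in 3014 but 88.2 to 288 in the remaining later cows.

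**Figure D2:**
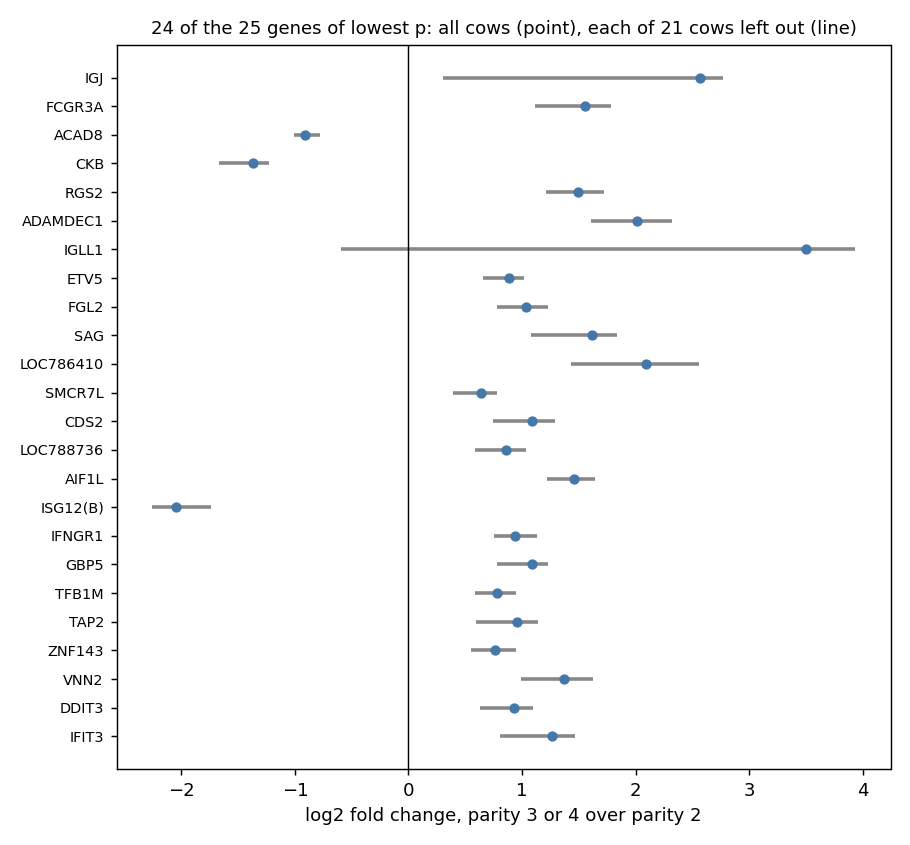
Log2 fold change of parity 3 or 4 over parity 2 (x axis) for 24 of the 25 genes of lowest p (y axis), with points for all 21 cows and lines for the range over the fits without 1 cow. IGLL1 crosses 0 and IGJ comes down to 0.30, both without cow 2814, while the other 22 genes shown keep their side of 0.

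Parity 3 and parity 4 were each set against the same 14 cows of parity 2, so that the comparisons are not independent. At parity 3, 322 genes (3.37%) had an unadjusted p under 0.05, 279 with a higher (2.92%) and 43 with a lower level (0.45%). At parity 4, 348 genes (3.64%) did so, 110 with a higher (1.15%) and 238 with a lower level (2.49%). Again 0 genes passed the adjusted test in edgeR, the lowest adjusted p being 0.157 for IGJ at parity 3. Between parity 4 and parity 3 themselves 0 genes passed, with 189 (1.98%) at an unadjusted p under 0.05.

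For the genes described above, the estimates at the 2 parities are given as values from 4 and 3 cows. No difference between the 2 parities passed the adjusted test. FCGR3A had a log2 fold change of 1.86 at parity 3 and 1.01 at parity 4, and RGS2 of 1.62 and 1.30. CKB had -0.94 and -2.26, with medians of 19.8 and 9.77 CPM, where cow 2814 of parity 3 had 42.7 CPM. ACAD8 had -0.74 and -1.18, with medians of 14.9 and 10.8 CPM. IFIT3 had 1.70 at parity 3 and 0.34 at parity 4, and ETV5 0.78 and 1.02. Among these, IGJ (log2 fold change of parity 4 over parity 3 -3.02) had an unadjusted p of 0.00477 in edgeR. Its high level at parity 3 was that of cow 2814 alone, with 181 CPM.

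Lists of genes for cell types and functions were described by their members tested, with 4.17% of all genes at an unadjusted p under 0.05 and a median log2 fold change of -0.09 as the background, 3618 of the 9548 (37.9%) being above 0. None of the members passed the adjusted test. The neutrophil list had 5 of 7 members at an unadjusted p under 0.05, all of them higher at later parity, and a median log2 fold change of 0.92. Besides CXCR2 they included S100A9 (1.06, SE 0.42) and S100A8 (0.90, SE 0.38), which form the antimicrobial calprotectin, and TREM1 (0.92, SE 0.40), a receptor that amplifies inflammation. S100A9 was 3491 CPM in cow 7598, 3235 in 3014, 1491 in 2893 and 542 to 993 in the other 4 later cows, and 206 to 1838 at parity 2, so that all 7 were above the parity 2 median of 508. S100A12, the member of the list with the highest level, was 1776 to 3964 CPM at later parity and 1053 to 5854 at parity 2, with medians of 2812 and 1977.

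The summed neutrophil level rested on a few cows. It was 14729 CPM in cow 3014 and 13086 in 7598, and 4056 to 9014 in the other 5 later cows. At parity 2 it was 1815 to 11001 with a median of 4756, and cows 3235 and 3161 of parity 2 had 11001 and 10992. The summed level was above the parity 2 median in 5 of 7 later cows. Without cow 3014 the number of members at an unadjusted p under 0.05 was 1, and without cow 7598 it was 2. It was also 1 without the 4 cows of parity 2 that had more than 40% of their counts in 10 genes. It was 4 within the cows of fewer than 15000000 counts, where 4.97% of all genes had an unadjusted p under 0.05, and 0 within those of more, where 1.46% did. For parity 4 alone against parity 2 it was 0, with 3.64% of all genes. Without cow 7598 the log2 fold change of TREM1 was 0.53. The part of neutrophil number in the levels of FCGR3A, VNN2 and the other genes led by cows 3014 and 7598 was not tested.

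**Figure D3:**
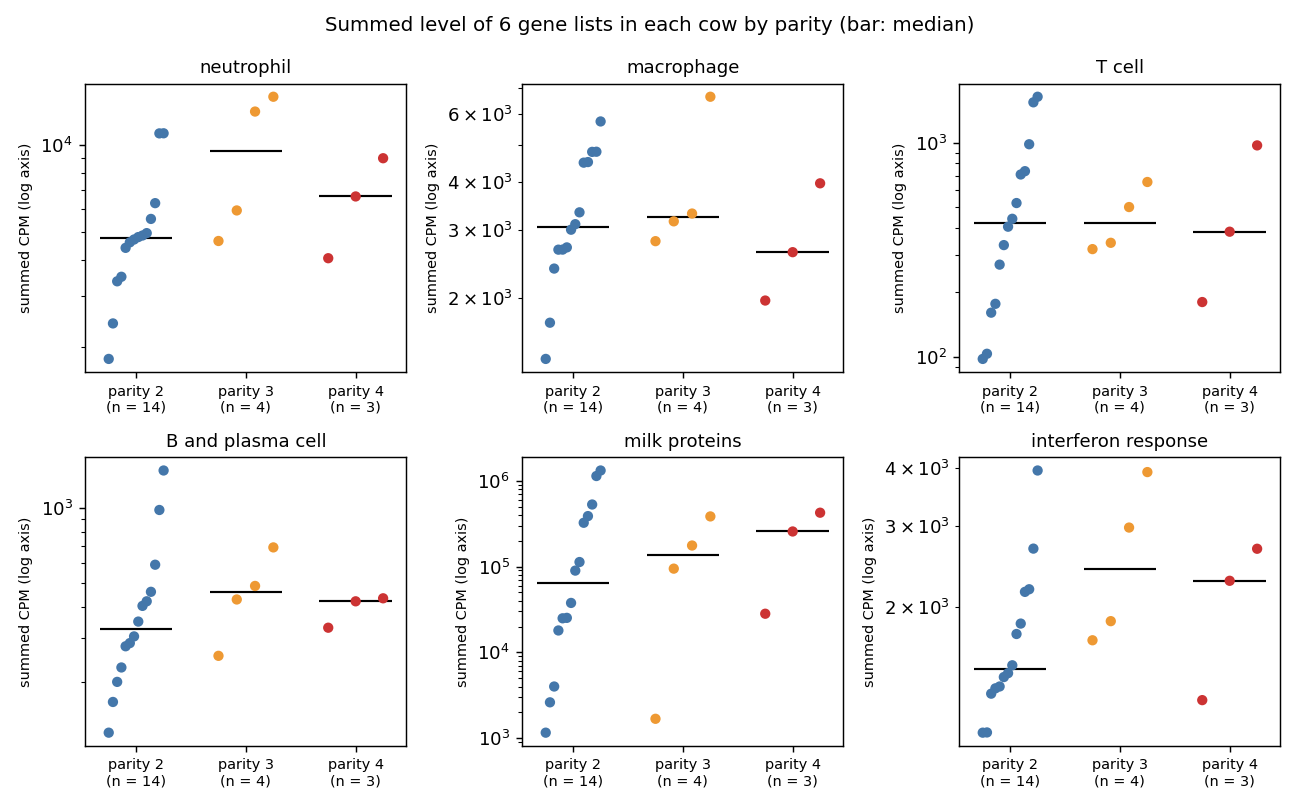
Summed level in CPM (log axis) of the genes of 6 lists in each cow at parity 2 (blue), 3 (orange) and 4 (red), with bars at the medians. The groups overlap in every list, and the 2 highest neutrophil sums, 14729 and 13086 CPM, are those of cows 3014 and 7598 of parity 3. The B and plasma cell sum includes the epithelial receptor PIGR, which was 1324 of 1411 CPM in cow 3262. It also includes PRDM1, 910 of 979 CPM in cow 7643, so that this sum is no measure of B and plasma cells alone.

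The lists of the other leukocytes held few members at an unadjusted p under 0.05, and their medians are given with later parity first and parity 2 second. The macrophage list had 0 of 8 members at an unadjusted p under 0.05 and a median log2 fold change of -0.27. Its sum was 1970 to 6663 CPM at later parity, with cow 2814 the highest, and 1390 to 5748 at parity 2. CD68 had medians of 1885 CPM at later parity and 1419 at parity 2, and CD14, a receptor for lipopolysaccharide, of 447 and 406. The log2 fold change of CD14 was -0.20 (SE 0.40), opposite in direction to its medians. The T cell list had 0 of 11 such members (median -0.23), with CD3E medians of 70.6 and 86.5 CPM and CD4 medians of 53.9 and 54.9. The cytotoxic list had 0 of 11 (median -0.18), with NKG7 medians of 113 and 132 CPM and CTSW medians of 31.2 and 33.4. Of 20 members for T cell memory and checkpoints 1 was at an unadjusted p under 0.05, which was LAG3, and the median was -0.05, with CD69 medians of 376 and 205 CPM and CCR7 medians of 105 and 105. Of 10 members for B and plasma cells there were 2, IGJ and POU2AF1. PRDM1, the plasma cell regulator, had medians of 124 and 80.2 CPM and PIGR, the epithelial receptor that carries IgA into milk, 136 and 67.2. Their log2 fold changes of -0.17 (SE 0.52) and -0.30 (SE 0.95) were opposite in direction to these medians. Of 9 members for MHC class II, 0 had an unadjusted p under 0.05. CD74 had medians of 2181 and 2489 CPM and BOLA-DRB3 of 330 and 364 (log2 fold change of BOLA-DRB3 0.03, SE 0.38).

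The genes of milk secretion spanned a wide range in both groups. The 7 milk protein genes held 0.201% to 32% of the counts at later parity, with a median of 15.1%, and 0.118% to 60.4% at parity 2, with a median of 8.48%. None of the 7 had an unadjusted p under 0.05. Their median log2 fold change was -0.59 in edgeR but 0.51 in limma-voom and 0.81 with lactation period and yield group as covariates, so that no direction can be given. Without the 4 cows of parity 2 named above, 2 of the 7 had an unadjusted p under 0.05, both higher at later parity, in a fit where 5.75% of all genes had one and 407 of those 549 genes were higher. CSN2, beta-casein, was 629 to 124905 CPM at later parity and 301 to 364965 at parity 2, and CSN1S1, alpha-s1-casein, 342 to 102907 and 294 to 392158. In the epithelial list 0 of 14 members had an unadjusted p under 0.05. ELF5, a transcription factor of alveolar cells, had medians of 243 CPM at later parity and 85.5 at parity 2, and KRT19 of 118 and 129. The log2 fold change of ELF5 was -0.30 (SE 0.98), opposite in direction to its medians, and that of KRT19 was -0.27 (SE 0.92).

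Of 24 genes for milk fat, 1 was at an unadjusted p under 0.05. This was DGAT2, which makes triacylglycerol, with 123 to 783 CPM at later parity against 21.4 to 366 at parity 2. All 7 later cows were above its parity 2 median of 104, cows 7598 and 3014 being the highest with 783 and 447 (log2 fold change 1.24, SE 0.45, and 0.74 without cow 7598). The fatty acid receptor CD36 had medians of 1818 and 2448 CPM and the lipid droplet protein PLIN2 of 1850 and 1582. The log2 fold change of PLIN2 was -0.64 (SE 0.50), opposite in direction to its medians. Of 14 genes for hormones and growth factors 1 was at an unadjusted p under 0.05, the STAT5 target CISH, which was 11.9 to 30.6 CPM at later parity and 6.63 to 486 at parity 2 (log2 fold change -1.51, SE 0.72). The highest of these was cow 7643 of parity 2, without which the log2 fold change was -0.21 (unadjusted p = 0.541 in edgeR). NR3C1, the glucocorticoid receptor, had medians of 158 and 136 CPM and STAT5A of 79.9 and 55.8.

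Among the lists of innate defence, 1 of 15 Toll-like receptor genes was at an unadjusted p under 0.05. This was TLR2, a receptor for bacterial lipoproteins, with 334 to 1317 CPM at later parity and 154 to 693 at parity 2, cows 3014, 2920 and 2893 being above all of parity 2 (log2 fold change 0.77, SE 0.29). MYD88, its adaptor, had medians of 604 and 376 CPM. Of 13 complement genes there was 1, CD55, which protects cells from complement (log2 fold change 0.99, SE 0.39), with CD46 at medians of 415 and 393 CPM. Of 12 antimicrobial genes there were 0, with LYZ, lysozyme, at medians of 1346 and 1131 CPM and LTF, lactoferrin, at 321 and 361. Of 7 acute phase genes there were 0, with HP, haptoglobin, at medians of 30.1 and 19 CPM and the serum amyloid gene SAA3 at 21.7 and 26.5. The log2 fold change of SAA3 was 0.30 (SE 0.57), opposite in direction to its medians.

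Of 22 interferon response genes, 2 were higher and 1 lower at an unadjusted p under 0.05, and the median log2 fold change was 0.12. The higher ones were IFIT3 and IRF9, a subunit of the transcription factor ISGF3, which was 466 CPM in cow 2893 and 36.1 to 247 in the other later cows, against 42.7 to 214 at parity 2 (log2 fold change 0.88, SE 0.38, and 0.36 without cow 2893, unadjusted p = 0.315 in edgeR). The lower one was IFI27, with 0.588 to 3.78 CPM at later parity and 0.196 to 12.9 at parity 2 (log2 fold change -1.32, SE 0.61). ISG15 had medians of 200 CPM at later parity and 199 at parity 2.

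Of 25 cytokine and chemokine genes, 2 were at an unadjusted p under 0.05, both higher at later parity. These were IL10, the anti-inflammatory cytokine (log2 fold change 1.05, SE 0.42), and PTGS2, which makes prostaglandins (1.04, SE 0.49). IL10 was 89.2 CPM in cow 2920, 88.4 in 7598 and 13.5 to 53.9 in the others, and 4.71 to 77.8 at parity 2. IL1RN, the antagonist of interleukin 1, had medians of 4547 and 2062 CPM and NFKBIA, the inhibitor of NF-kappa B, of 3404 and 1082. Of 17 immediate early genes there was 1, FOS, with 432 to 1423 CPM at later parity and 254 to 765 at parity 2 (log2 fold change 0.80, SE 0.27), and DUSP1 had medians of 797 and 543 CPM.

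Of 24 cell cycle genes 1 was at an unadjusted p under 0.05, and 22 had a log2 fold change below 0, with a median of -0.42. The 1 gene was CDC6, which loads replication helicases, and its direction was opposite to that of the list: 5.34 to 24.8 CPM at later parity, with 4 cows above all of parity 2, against 0.589 to 17.4 (log2 fold change 0.93, SE 0.41). PCNA had medians of 103 CPM at later parity and 97.5 at parity 2, and MCM7 of 52.3 and 53. Of the 16 list genes at an unadjusted p under 0.05 that were not among the 25 of lowest p, 1, which was FOS, kept it in all 21 fits without 1 cow.

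Lactation period and yield group were then taken as covariates, since they differ from cow to cow. The number of genes at an unadjusted p under 0.05 was 317 (3.32%) with lactation period, 348 (3.64%) with yield group and 286 (3%) with both. In each fit 0 genes passed the adjusted test. The 25 genes of lowest p were chosen by the same contrast in the same cows, so that their counts in these fits are no support for a parity difference. With both covariates 24 of them had an unadjusted p under 0.05, the exception being IGLL1 (log2 fold change 1.84). FCGR3A had a log2 fold change of 1.51 in the fit with both covariates, ACAD8 of -0.92 and CKB of -1.39. Within the 12 cows of fewer than 15000000 counts, 23 of the 25 genes and 4.97% of all genes had an unadjusted p under 0.05. Within the 9 cows of more than 15000000 counts, which include 3 cows of later parity, 5 of the 25 and 1.46% of all genes did. Of the 25, 24 had the same direction there, the exception being AIF1L. There FCGR3A had 1.23, ACAD8 -0.95 and CKB -1.02, while LOC788736 had 0.14 and IFIT3 0.19.

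Whether the parity difference itself differed between HY and LY cows was tested with an interaction term, for 3 later and 6 parity 2 cows in HY and 4 and 8 in LY. Of 9548 genes 0 passed the adjusted test, and 987 (10.3%) had an unadjusted p under 0.05. In 745 of these (7.8%) the log2 fold change was lower in HY than in LY, and in 242 (2.53%) it was higher. The split was 781 lower and 729 higher with lactation period as a covariate, 440 and 361 without cow 2814, and 259 and 272 without cow 2920. Within HY 995 genes (10.4%) and within LY 268 genes (2.81%) had an unadjusted p under 0.05, and 0 passed in either. The number for the interaction was 462 without cow 2893, 531 without cow 2920, 554 without cow 3280 and 1531 without cow 3235.

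The 5 genes of lowest interaction p had an adjusted p of 0.476 each in edgeR. IDO1, which breaks down tryptophan, was 113, 75.8 and 72.4 CPM in the 3 later HY cows and 8.64 to 35.9 in the 6 HY cows of parity 2. In LY cows it was 28.8 to 51.1 CPM at later parity and 23.1 to 85.3 at parity 2. The log2 fold changes were 2.02 (SE 0.40) in HY and -0.24 (SE 0.36) in LY. LBH, a transcriptional regulator, was 24.4 to 49 CPM against 14.1 to 27.1 in HY and 16.5 to 20.8 against 21.4 to 70.6 in LY, with log2 fold changes of 1.01 (SE 0.34) and -0.92 (SE 0.32). The parity groups did not overlap for IDO1 in HY and for LBH in LY, but both genes were chosen by this same test. How many of all genes separate so in groups of so few cows was not counted, so that no weight is given to it. CLEC3B, which encodes tetranectin, was at most 0.211 CPM in the later HY cows and 0.141 to 7.83 in those of parity 2, against 0.481 to 3.66 and 0.214 to 1.04 in LY, all of them low levels. LAG3 and IGLL1 were the other two, and both had their highest level in cow 2814.

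The estimated fold changes of the T cell genes and of most milk protein and epithelial genes were of opposite sign in the yield groups. Their standard errors within a yield group were wide, so that the sign within each is not settled. Of 11 T cell genes, 9 had an unadjusted interaction p under 0.05, all with a higher log2 fold change in HY (2.53% of all genes), and 0 passed the adjusted test in edgeR. The log2 fold changes of the 11 were 0.41 to 1.72 in HY and -1.63 to -0.82 in LY. CD3E had 0.84 (SE 0.61) in HY and -1.19 (SE 0.57) in LY, and CD4 1.17 (SE 0.81) and -1.44 (SE 0.77). In HY the summed level was 501 CPM in cow 2814, 656 in 3014 and 972 in 2920, against 103 to 984 at parity 2 with a median of 223. In LY it was 180 to 384 CPM at later parity and 97.7 to 1640 at parity 2, with medians of 330 and 617. The groups overlapped in both. The number of members was 10 with lactation period as a covariate, 6 without cow 2893 and 5 without cow 2920. It was 11 without cow 2814, 3064, 3135, 3198 or 3262.

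All 7 milk protein genes had a log2 fold change below 0 in HY, from -3.80 to -2.32, and above 0 in LY, from 0.98 to 1.96. The SE for CSN2 was 1.72 in HY and 1.29 in LY. Of the 7 genes, 2 had an unadjusted interaction p under 0.05, against 7.8% of all genes with a lower log2 fold change in HY. This number was 6 without cow 3014, 4 without cow 3369 and 0 without cow 2814, 2893, 2920 or 3280 or with lactation period as a covariate. The summed level was 1683 CPM in cow 2814, 28177 in 2920 and 175635 in 3014, within the 1160 to 1313750 CPM of the HY cows of parity 2. In the epithelial list 6 of 14 members had an unadjusted interaction p under 0.05. Over the fits without 1 cow this number ran from 1 (without cow 2814 or cow 2920) to 10 (without cow 3014). It was 0 with lactation period as a covariate. KRT19 had a log2 fold change of -3.03 (SE 1.46) in HY and 1.61 (SE 1.03) in LY. The part of these cell markers in the levels of IDO1, LBH and LAG3 was not tested.

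**Figure D4:**
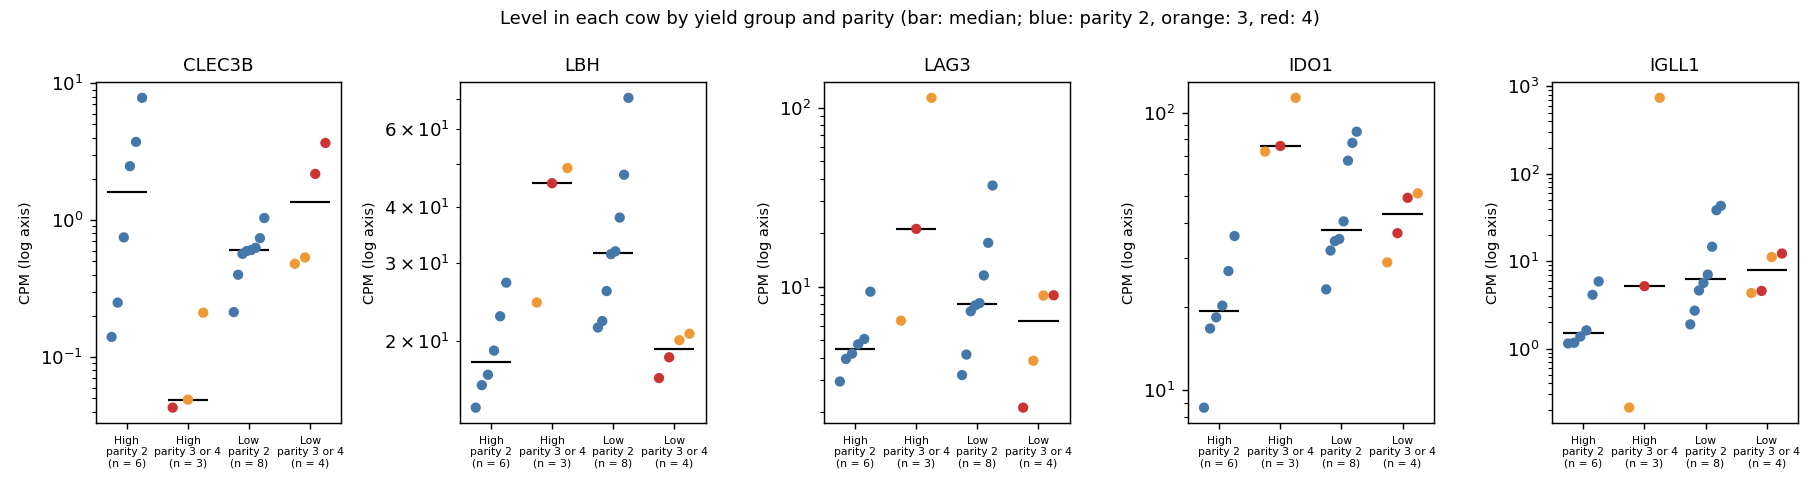
Level in CPM (log axis) of the 5 genes of lowest interaction p in each cow by yield group and parity, with bars at the medians and parity 2 in blue, 3 in orange and 4 in red. The parity groups do not overlap for IDO1 in HY and for LBH in LY, which was not counted over all genes. In LAG3 and IGLL1 a single later HY cow stands above all others.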

How the data were processed

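Per the labels and the study's methods, the authors trimmed the reads with Trimmomatic, mapped them to bosTau7 with Bowtie2 within TopHat2 and counted them per gene with HTSeq. Versions and strand setting are not given in the sources used here. The deposited values were raw counts for 13570 gene rows per cow, of which 23 had symbols turned into dates. Summary lines and a row without a symbol (0.036% to 0.151% of counts) were left out. No pair of cows was a duplicate (lowest chi-square per degree of freedom 37.9 over 210 pairs).

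Counts were analysed with edgeR 4.0.16 in R 4.3.3 (TMM factors, filterByExpr, quasi-likelihood test, Benjamini-Hochberg over 9548 genes, threshold 0.05). DESeq2 1.42.0, limma-voom (limma 3.58.1) and an exact permutation test of log2(CPM + 0.25) over 116280 choices of 7 of 21 cows were alternatives, with others of scaling, filter, covariates, depth class and cows left out. Scripts were tested on simulated data. The genes named were the 25 of lowest p, in each of 20 lists the members with an unadjusted p under 0.05 and the 2 of highest mean level, and the 5 of lowest interaction p; 2 genes named by this rule are not reported here. ISG12(B) and IFI27 were compared as relatives after their values were seen. The split of the cows and the gene lists were chosen with earlier results of these data known. Of 356 list symbols, 317 were in the files and 270 were tested. The current symbols JCHAIN and MIEF1 were taken from RefSeq. P-values set the difference tested against the spread between these cows.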

Additional observations from a re-analysis of the deposited data

Results flagged for a closer look

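In 7 of 89 values checked over the 7 later cows, 1 cow lay far from the others by Dixon's criterion, which chance alone gives in about 1 of 20 such sets. Cow 2814 accounted for 4 of them: its log2(CPM + 0.25) was 7.50 for IGJ and 8.35 for NKG7, a cytotoxic granule gene, the highest of the 7, and 0.97 for ELF5 and 5.78 for NR3C1, the lowest. Cow 2893 had the fewest genes with a count, 9056, and the lowest level of CD4, 3.05 on the same scale. Cow 3014 had the lowest level of LYZ, 8.28.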

How the results depend on the processing

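In each fit of parity 3 or 4 over parity 2, 0 genes passed the adjusted test, and the number at an unadjusted p under 0.05 (398) was 706 without a filter on low counts, 139 within the cows of more than 15000000 counts and 196 (without cow 3014) to 813 (without cow 2814) with 1 cow left out. For the interaction (987) it was 1510 with lactation period as a covariate and 462 to 1531 with 1 cow left out. The cause was not tested. The lowest adjusted p over the other settings was 0.157 (parity 3 over parity 2), 0.164 with DESeq2 and 0.216 without a filter. The next signs are for genes given with a fold change and at an unadjusted p under 0.05 in edgeR with all cows. The sign turned for IGLL1 (-0.37 at parity 4, -0.55 within cows of fewer than 15000000 counts) and TREM1 (-0.19 at parity 4). It also turned for POU2AF1 (-0.052 at parity 4, -0.20 with DESeq2) and AIF1L (-0.24 within cows of more than 15000000 counts). Within cows of fewer than 15000000 counts it turned for CISH (0.028) and LAG3 (-0.16). Without cow 2814 it turned for IGLL1 (-0.59), LAG3 (-0.051) and POU2AF1 (-0.22). Some genes above that p turned as well with 1 cow left out. Their log2 fold change reached 0.40 for ELF5, 0.23 for KRT19, 0.40 for PIGR, 0.56 for PRDM1 and 0.065 for PLIN2. For SAA3 it reached -0.58 and for BOLA-DRB3 -0.23. With 1 cow left out the log2 fold change was -0.59 to 3.93 for IGLL1, -0.051 to 1.76 for LAG3 and -0.22 to 2.29 for POU2AF1. Relative log expression factors gave 71.4% higher genes among those at an unadjusted p under 0.05, against 63.8%. The exact permutation test gave 51.8% and parity as a number 38.8%. The share was 45.9% without cow 2893 and 46.8% without cow 7598. No paired analysis was possible because each cow gave 1 library at 1 parity and the labels match no cows between the groups. Of 12333 genes with a count, 9548 were tested, so that genes of low counts are covered only by the fit without a filter.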
